A study of Mus musculus with 36 samples.

Results

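The distal colon of mice labelled scrambled, which received a scrambled siRNA into the rectum, was compared with the distal colon of mice labelled Control. The comparison holds 7 scrambled and 9 Control arrays, chosen by their titles alone, of 36 arrays in the series. All animals of both groups, and of the 3 groups given siRNA against Tnf, carry the label 5% DSS. DSS is dextran sulfate sodium, which injures the colon epithelium when mice drink it. Since the design text lists groups that all received siRNA, it is not settled which treatment the Control animals had, and Control is used only as a name. The siRNA, its delivery and any difference in DSS exposure between the groups therefore cannot be told apart. The labels read here state no strain, sex or age of the mice. The labels mark the arrays as separate samples of a group, and p-values measure the spread between these samples. Labelled colon length ran from 5.8 to 6.7 in scrambled and from 7.2 to 8.1 in Control, with no overlap. Myeloperoxidase activity, an enzyme activity of neutrophils, ran from 0.238 to 1.35 U per mg in scrambled and from 0.009 to 0.088 in Control.

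The colon wall holds an epithelium that absorbs salt and water and makes mucus, a stroma of fibroblasts, vessels, nerves and muscle, and resident immune cells. Stem cells at the crypt base renew the epithelium. When the epithelium is breached, bacteria reach the wall, macrophages and neutrophils enter, interferons induce defence genes in many cell types, and fibroblasts remodel the matrix. In RNA from whole tissue, fewer cells of a type and less RNA per cell cannot be told apart, and this holds for every gene below.

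Values are log2 probe set signals, and a difference is scrambled minus Control from a linear model with the amplification and hybridization batches as terms. A gene is said to have risen or fallen where its adjusted p was under 0.05 over all 28853 probe sets. Each gene is represented by 1 probe set, which gave 19938 genes. A gene is called steady where its direction and its call held in 22 further fits, which include other scalings, a fit without batch terms, a fit of the 2 groups alone, the omission of arrays with a narrow spread of signal, and the omission of each of the 16 arrays in turn. A value after ± is the standard error of the difference, with n = 7 and 9 and the spread estimated from all 36 arrays.

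The tissue label was checked against markers. The colon epithelial genes Car1, Slc26a3, Muc2, Vil1, Krt20 and Guca2a had Control medians between 12.15 and 13.30 log2. Of the same set Aqp8 lay at 11.60 and Cdx2 at 8.57. The small intestinal genes Sis, Alpi and Lct had Control medians of 6.01, 6.80 and 7.46. Apoa4 of that set lay at 7.705 and Fabp6 at 8.60, above Cdx2. The squamous keratins Krt4, Krt5 and Krt13 lay at 6.38, 7.10 and 7.23. Trp63, Krt6a and Krt14 of the squamous set lay at 7.64, 7.69 and 8.03. Some arrays stood apart. Transcripts of the exocrine pancreas were high in scrambled replicate 5, where Cpa1, a pancreatic carboxypeptidase, reached 13.37 against at most 8.60 in the other 15 arrays. Several transcripts of liver were high in scrambled replicate 3, where Alb, the gene of serum albumin, reached 11.94 against at most 9.42 elsewhere. In these arrays 36 and 19 probe sets lay more than 1 log2 above all other arrays of the comparison, and 16 did so in scrambled replicate 2. Other markers of the pancreas and liver set were high in every array. Ttr ran from 11.35 to 12.06 in Control and from 10.21 to 11.15 in scrambled. Cela1 ran from 11.24 to 12.20 in Control and from 10.82 to 13.07 in scrambled. A narrow spread, with an array SD under 1.7, was found in 4 Control arrays and 1 scrambled array. Counts for a gene list are therefore also given without the 5 narrow arrays where the number of risen or of fallen members changed by at least 3, and 3 more narrow arrays of the other groups were left out with them.

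**Figure D1:**
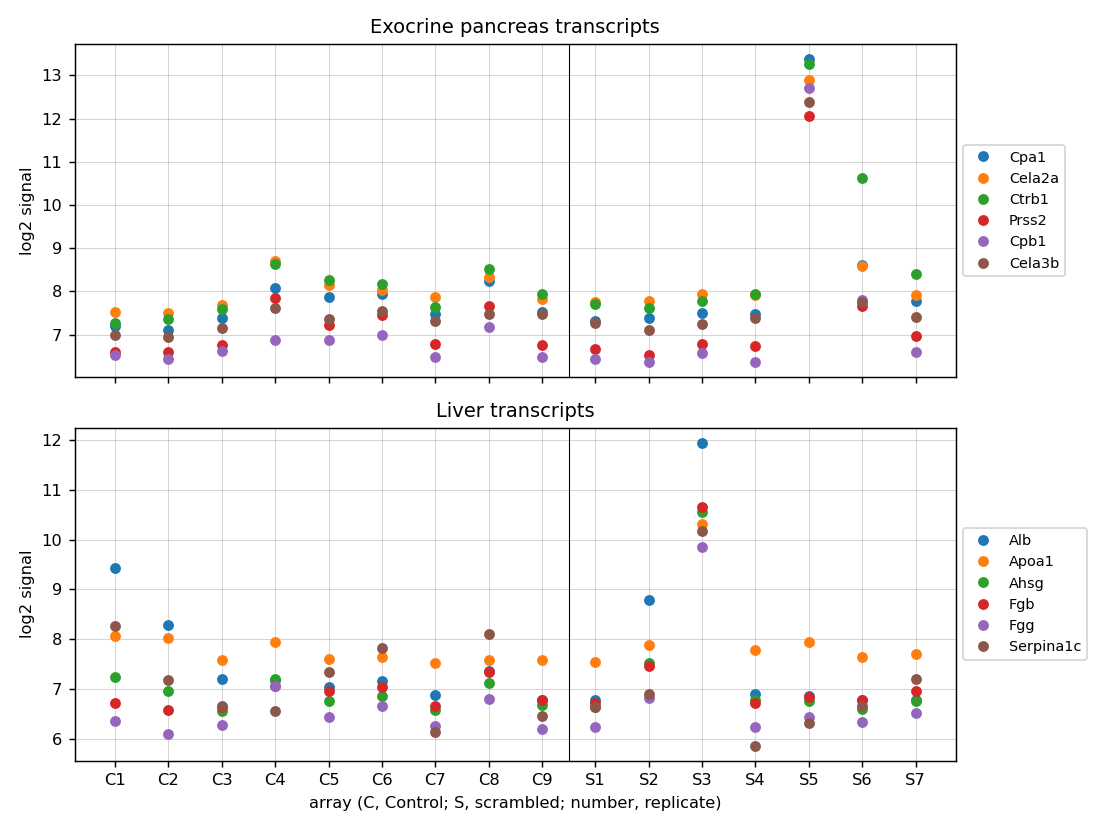
Log2 signal (vertical axis) of 6 exocrine pancreas and 6 liver transcripts in each of the 16 arrays (horizontal axis), with a line between Control and scrambled. The pancreas transcripts lie between 12.06 and 13.37 in scrambled replicate 5, and the liver transcripts between 9.84 and 11.94 in scrambled replicate 3.

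In all, 2099 probe sets were higher in scrambled (7.27%) and 1285 were lower (4.45%). By gene, 1803 of 19938 rose (9.04%) and 821 fell (4.12%), and 901 of the risen genes (4.52%) and 363 of the fallen genes (1.82%) were steady. The median difference over all genes was -0.01. Most changes were small: 902 risen and 507 fallen genes changed by 0.5 log2 or less, while 191 rose and 66 fell by at least 1. The 7 scrambled arrays lay wholly above the 9 Control arrays in 462 genes with higher signal (2.32%) and wholly below them in 164 genes (0.823%). When the narrow arrays were omitted, 8085 probe sets were higher and 6332 lower, and 2717 of the 3384 original calls kept their direction and call. By gene, 28.2% rose and 25% fell in that fit. With only the 2 groups in the fit, 1168 probe sets were higher and 563 lower, and 1714 of the 3384 calls were kept.

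Of the steady rises described here, that of Aldh1a3, which makes retinoic acid from retinal, had the largest difference. Its signal ran from 8.36 to 8.83 (median 8.62) in Control and from 10.51 to 11.41 (median 10.83) in scrambled. The groups did not overlap, and the difference of 2.25 ± 0.15 corresponded to a 4.74-fold higher signal (adjusted p = 3e-12). Lrg1, a secreted glycoprotein of the acute phase and of vessel growth, ran from 7.94 to 8.88 (median 8.72) in Control and from 10.00 to 11.82 (median 10.47) in scrambled. It too separated the groups completely, with a difference of 2.18 ± 0.25 (adjusted p = 1.67e-07). Trim15, a member of the tripartite motif family, ran from 6.33 to 7.24 (median 6.53) in Control and from 7.80 to 10.04 (median 8.21) in scrambled. The lowest scrambled array lay above the highest Control array, and the scrambled arrays were widely spread (difference 2.14 ± 0.36, adjusted p = 5.83e-05).

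The other leading rises included secreted defence proteins, interferon-induced genes and genes of lipid and vitamin A metabolism. Retnlb (2.07 ± 0.37), a goblet cell protein with activity against bacteria, Lbp (1.87 ± 0.20), which presents lipopolysaccharide to its receptor, and Wfdc18 (1.64 ± 0.19), a small secreted protein, rose. Mpeg1 (1.91 ± 0.19), a pore-forming protein of macrophages, and Ms4a6c (1.93 ± 0.22), a membrane protein of myeloid cells, rose in scrambled with no overlap between groups. Gm12250 (1.81 ± 0.32) and Ifit2 (1.73 ± 0.29), both induced by interferon, and Ido1 (1.90 ± 0.41), which degrades tryptophan, also rose. Ido1 ran from 7.82 to 8.43 in Control and from 8.12 to 11.70 in scrambled, with overlap. Its difference was 0.35 within amplification batch 3. Dhrs9 (1.61 ± 0.26) and Aldh1a3 both act in the conversion of retinol to retinoic acid, and Fabp5 (1.90 ± 0.16) carries fatty acids and retinoic acid in the cell. Gem (1.75 ± 0.23), a small GTPase, Tnip3 (1.64 ± 0.28), an inhibitor of NF-kB signalling, Mgp (1.60 ± 0.15), an inhibitor of calcification, Mgat4c (1.63 ± 0.23), an N-glycan branching enzyme, and Nt5c1a (1.59 ± 0.19), a nucleotidase, completed the set.

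Myb, the transcription factor that keeps colon crypt progenitors dividing, had the largest difference of the steady falls described here. Its signal ran from 9.35 to 10.52 (median 10.15) in Control and from 7.96 to 8.89 (median 8.59) in scrambled. Each scrambled array lay below every Control array (difference -1.43 ± 0.16, adjusted p = 1.17e-07). Klk15, a kallikrein serine protease, ran from 8.92 to 10.22 (median 9.55) in Control and from 7.91 to 8.58 (median 8.15) in scrambled, again without overlap (difference -1.43 ± 0.14, adjusted p = 6.02e-09). Birc5, which encodes survivin of the chromosomal passenger complex, ran from 8.01 to 10.05 (median 9.38) in Control and from 7.53 to 8.24 (median 7.81) in scrambled. Its groups overlapped because 1 Control array was low, and the difference was -1.40 ± 0.19 (adjusted p = 2.09e-06).

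Several other leading falls were genes of mitosis. Mki67 (-1.29 ± 0.18), the proliferation marker, Cdca3 (-1.39 ± 0.15), a trigger of mitotic entry, Knstrn (-1.32 ± 0.17) and Spc24 (-1.23 ± 0.17) of the kinetochore and spindle, Mad2l1 (-1.19 ± 0.20) of the spindle checkpoint and Cdkn3 (-1.28 ± 0.15), a cell cycle phosphatase, all fell. A further set acts in metabolism: Cbs (-1.29 ± 0.13) of homocysteine breakdown, Mecr (-1.19 ± 0.15) of mitochondrial fatty acid synthesis, Rbp2 (-1.24 ± 0.20), which carries retinol in enterocytes, and Ugt2b35 (-1.27 ± 0.14), a glucuronosyltransferase. Hhip (-1.34 ± 0.12), a decoy receptor for hedgehog ligands, Defb45 (-1.30 ± 0.10), a beta-defensin, Tinag (-1.27 ± 0.29), a basement membrane protein, Taf1d (-1.33 ± 0.20) of the RNA polymerase I machinery, Hid1 (-1.23 ± 0.16) of secretory granule formation and Rnf32 (-1.18 ± 0.11), a RING finger protein, fell as well. Taf1d has 9 probe sets, and its value is only that of the probe set of highest mean. Ugt2b35 and Rnf32 had low signals in scrambled, with medians of 5.77 and 6.21.

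**Figure D2:**
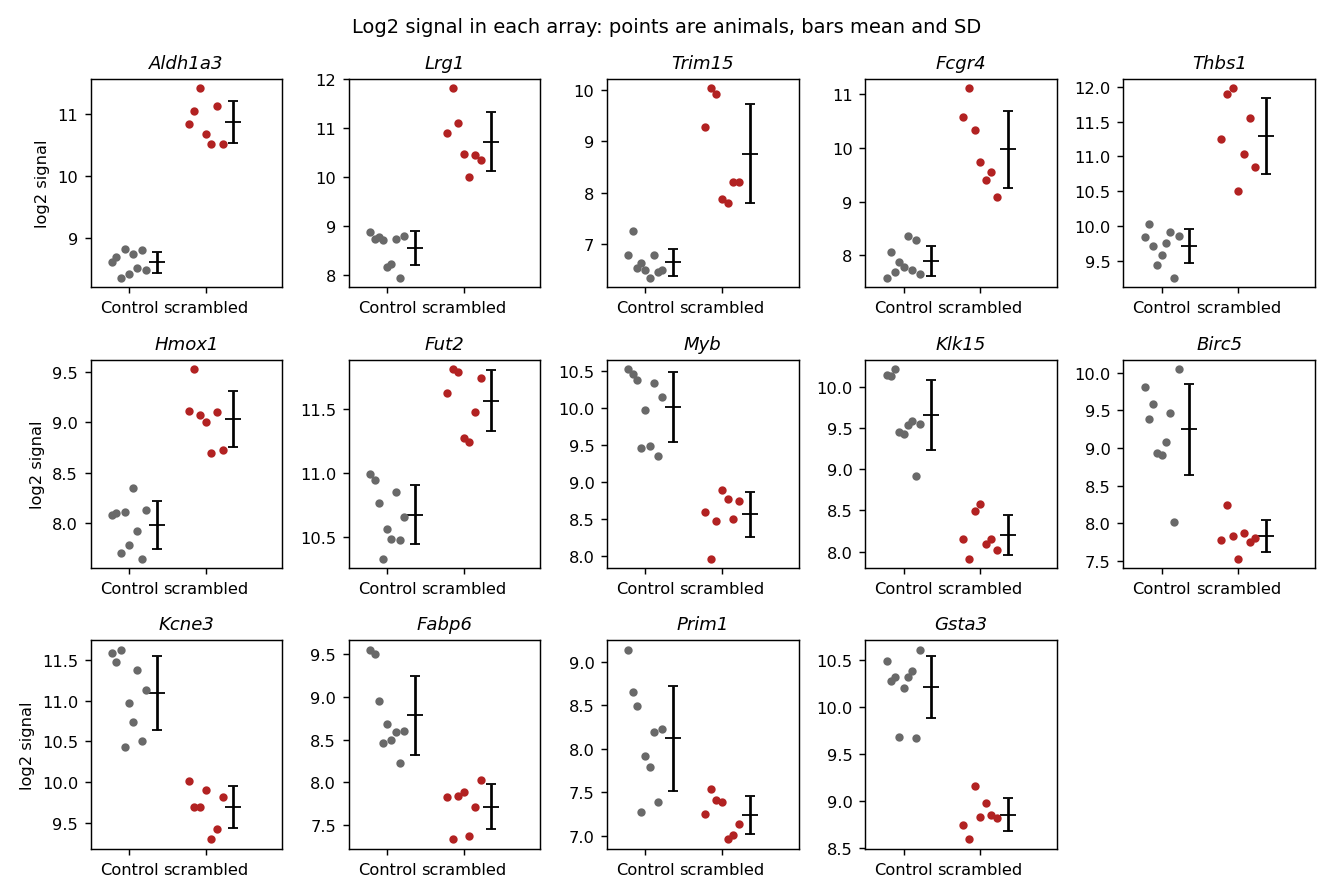
Log2 signal (vertical axes) of 14 genes in each Control and scrambled array, 1 point per array, with the group mean and SD beside the points. Aldh1a3 lies between 8.36 and 8.83 in Control and between 10.51 and 11.41 in scrambled, and Myb between 9.35 and 10.52 against 7.96 and 8.89.

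Promoter sequences were read for genes that moved together, because short motifs of interferon-responsive and of cell cycle promoters are known. RefSeq promoters of 300 bases on GRCm38.p6 (250 before to 50 after the start) were searched on both strands, and 15614 of the measured genes had one. Examples were chosen after leaving out genes named in earlier results of these data. Among the remaining steady risen genes with GAAANNGAA, the core of the interferon-stimulated response element, Fcgr4 and Ms4a6c had the largest difference. Among the remaining steady fallen genes, Cdca3 and Gsta3 had the largest difference with both TTTGAA, the cell cycle homology region, and CCAAT, the CCAAT box. Capitals mark the matches, in either orientation, and all 4 sequences are given on the plus strand, which is the strand of each gene.
Fcgr4: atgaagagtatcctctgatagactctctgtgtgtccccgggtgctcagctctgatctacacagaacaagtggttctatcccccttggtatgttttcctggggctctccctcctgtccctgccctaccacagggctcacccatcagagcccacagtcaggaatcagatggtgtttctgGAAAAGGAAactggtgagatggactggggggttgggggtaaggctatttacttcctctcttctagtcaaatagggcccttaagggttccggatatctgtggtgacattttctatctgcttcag
Ms4a6c: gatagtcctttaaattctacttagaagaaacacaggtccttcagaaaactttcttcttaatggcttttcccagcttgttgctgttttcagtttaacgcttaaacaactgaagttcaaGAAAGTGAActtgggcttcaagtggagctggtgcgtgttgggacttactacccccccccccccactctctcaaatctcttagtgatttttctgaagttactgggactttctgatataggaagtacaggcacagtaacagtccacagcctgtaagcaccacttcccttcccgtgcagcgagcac
Cdca3: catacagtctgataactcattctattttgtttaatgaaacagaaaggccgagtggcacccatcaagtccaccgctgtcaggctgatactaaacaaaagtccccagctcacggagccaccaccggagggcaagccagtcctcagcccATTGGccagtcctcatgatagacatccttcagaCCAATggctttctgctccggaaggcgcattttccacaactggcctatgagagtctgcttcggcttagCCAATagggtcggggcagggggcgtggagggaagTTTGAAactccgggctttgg
Gsta3: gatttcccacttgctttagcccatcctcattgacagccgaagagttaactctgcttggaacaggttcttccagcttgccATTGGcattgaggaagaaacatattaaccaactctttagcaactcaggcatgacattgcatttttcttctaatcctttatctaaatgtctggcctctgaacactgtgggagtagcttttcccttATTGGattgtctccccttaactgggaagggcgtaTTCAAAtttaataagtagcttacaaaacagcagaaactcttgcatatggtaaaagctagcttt
The regions are chr1:171018676-171018975 for Fcgr4, chr19:11469118-11469417 for Ms4a6c, chr6:124829926-124830225 for Cdca3 and chr1:21240335-21240634 for Gsta3.

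A gene was counted where any of its promoters held the motif. GAAANNGAA was found for 9.76% of all 27025 genes with a promoter and for 9.2% of the 15614 measured ones. It was found for 12.5% of 1379 risen genes, 14.6% of 676 steady risen genes and 23.2% of 138 genes that rose by at least 1 log2. Of 668 fallen genes 10.3% had it, of 298 steady fallen genes 8.05%, and of 52 genes that fell by at least 1 log2 it was found for 1 (1.92%). TTTGAA and CCAAT were both found for 8.97% of all and 7.94% of measured genes, not always in the same promoter. The share was 14.7% of the 668 fallen genes and 28.8% of those that fell by at least 1 log2, against 7.25% of those that rose by at least 1. The NF-kB site GGANTTTCC was found for 1.45% of all and 1.58% of measured genes. It was found for 8 of the 138 genes that rose by at least 1 log2 (5.8%), against 3.85% of those that fell by at least 1. Its shares in risen and fallen genes were 2.39% and 2.1%, and in steady risen and steady fallen genes 2.96% and 3.02%. These are matches of letters in a short window and carry no test.

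To describe pathways, 59 lists with 1396 places were used, of which 1303 were measured, covering 1293 genes. Counts are to be read against the 9.04% of all genes that rose and the 4.12% that fell, and medians against -0.01. Counts without the narrow arrays are to be read against the 28.2% that rose and the 25% that fell in that fit, and medians against 0.06. The lists carry no test.

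Among immune lists, the interferon-inducible GTPases, which attack the vacuoles of intracellular microbes, had the highest median of the 59, 1.42. Of 9 measured, 8 rose, among them Gbp5 (1.85 ± 0.29), Irgm1 (1.76 ± 0.37) and Gbp3 (1.48 ± 0.25), while Mx2 had a difference of 0.17. The median was 0.59 within amplification batch 3 and 1.91 within amplification batch 1. Amplification batch 1 held only scrambled replicate 1 and Control replicates 1 and 2 of the comparison. Of 29 genes of cytokine signalling through JAK kinases, 14 rose, led by Socs3 (1.58 ± 0.26), a feedback inhibitor, Irf7 (1.33 ± 0.20), a driver of interferon genes, and Osmr (1.20 ± 0.18), the oncostatin M receptor. That list's median was 0.41, and 0.14 without the narrow arrays, where 12 rose and 5 fell.

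Many complement and phagocyte genes rose. Of 23 complement genes 16 rose, among them C1qa (1.49 ± 0.19) and C1qb (1.36 ± 0.14), subunits of the recognition molecule C1q, and Cd55 (1.53 ± 0.28), which protects host cells from complement. In the list of Fc receptors and myeloid signalling 21 of 27 rose, with a median of 0.60. Fcgr4, an activating IgG receptor of monocytes and neutrophils, ran from 7.58 to 8.36 (median 7.78) in Control and from 9.10 to 11.11 (median 9.75) in scrambled. The groups were separate, and the difference was 2.10 ± 0.22 (adjusted p = 4.25e-08). Fcer1g (1.76 ± 0.17), the signalling chain shared by these receptors, and Cybb (1.50 ± 0.19), the oxidase that makes superoxide, also rose. Of 25 phagocyte receptors 12 rose, led by the C-type lectins Clec7a (1.83 ± 0.13), which binds fungal glucan, Clec4n (1.41 ± 0.15) and Clec4a3 (1.30 ± 0.14), and 18 rose and 2 fell without the narrow arrays.

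Lysosomal genes formed another large group. 20 of 30 hydrolases rose, including the proteases Lgmn (1.45 ± 0.18), Ctsd (0.92 ± 0.14) and Ctsk (0.87 ± 0.15), with a median of 0.45. With the narrow arrays left out, 11 rose and 3 fell, and the median was 0.15. Of 24 lysosomal membrane and proton pump genes 14 rose, and 3 were steady, among them Slc15a3 (1.23 ± 0.19) and Laptm5 (1.06 ± 0.12), both of immune cell lysosomes. The median of that list was 0.28, and 0.10 without those arrays, where 11 rose and 5 fell. In macrophage lipid handling 10 of 19 rose, with Apoe (1.10 ± 0.09), the lipoprotein ligand, and Msr1 (0.78 ± 0.16), a scavenger receptor, beside Fabp5.

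Antigen presentation and adhesion followed. Of 10 class II genes 6 rose, such as Cd74 (0.81 ± 0.16), the invariant chain, H2-DMa (0.70 ± 0.14), a peptide exchange factor, and H2-Aa (0.59 ± 0.11), a class II chain, while H2-Ob fell (-0.37). Of 22 dendritic cell genes 9 rose, with Irf8 (1.00 ± 0.19), Fscn1 (0.99 ± 0.12) and Ccr7 (0.65 ± 0.15), a factor, a cytoskeletal protein and a homing receptor of these cells, and without the narrow arrays 18 did. 17 of 24 integrin and adhesion genes rose, led by Itga5 (1.31 ± 0.16), the fibronectin receptor chain, Cd53 (1.12 ± 0.16), a leukocyte tetraspanin, and Itgb2 (0.88 ± 0.11), the beta chain of leukocyte integrins. In the list of Toll-like receptors, inflammasomes and pyroptosis 10 of 28 rose, with Casp4 (1.14 ± 0.19), a sensor of intracellular lipopolysaccharide, and Ripk3 (1.00 ± 0.23) and Mlkl (1.06 ± 0.22), kinase and effector of necroptosis, and without the narrow arrays 13 rose and 1 fell. Among checkpoint and regulatory receptors 5 of 22 rose, with Entpd1 (1.23 ± 0.18), which breaks down ATP, Cd274 (0.95 ± 0.19), the PD-1 ligand, and Lgals9 (0.95 ± 0.12), and without the narrow arrays 15 did. Of 21 iron and haem genes 6 rose, including Steap4 (1.45 ± 0.20), a metalloreductase, and Cp (0.95 ± 0.16), ceruloplasmin, and 1 fell.

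**Figure D3:**
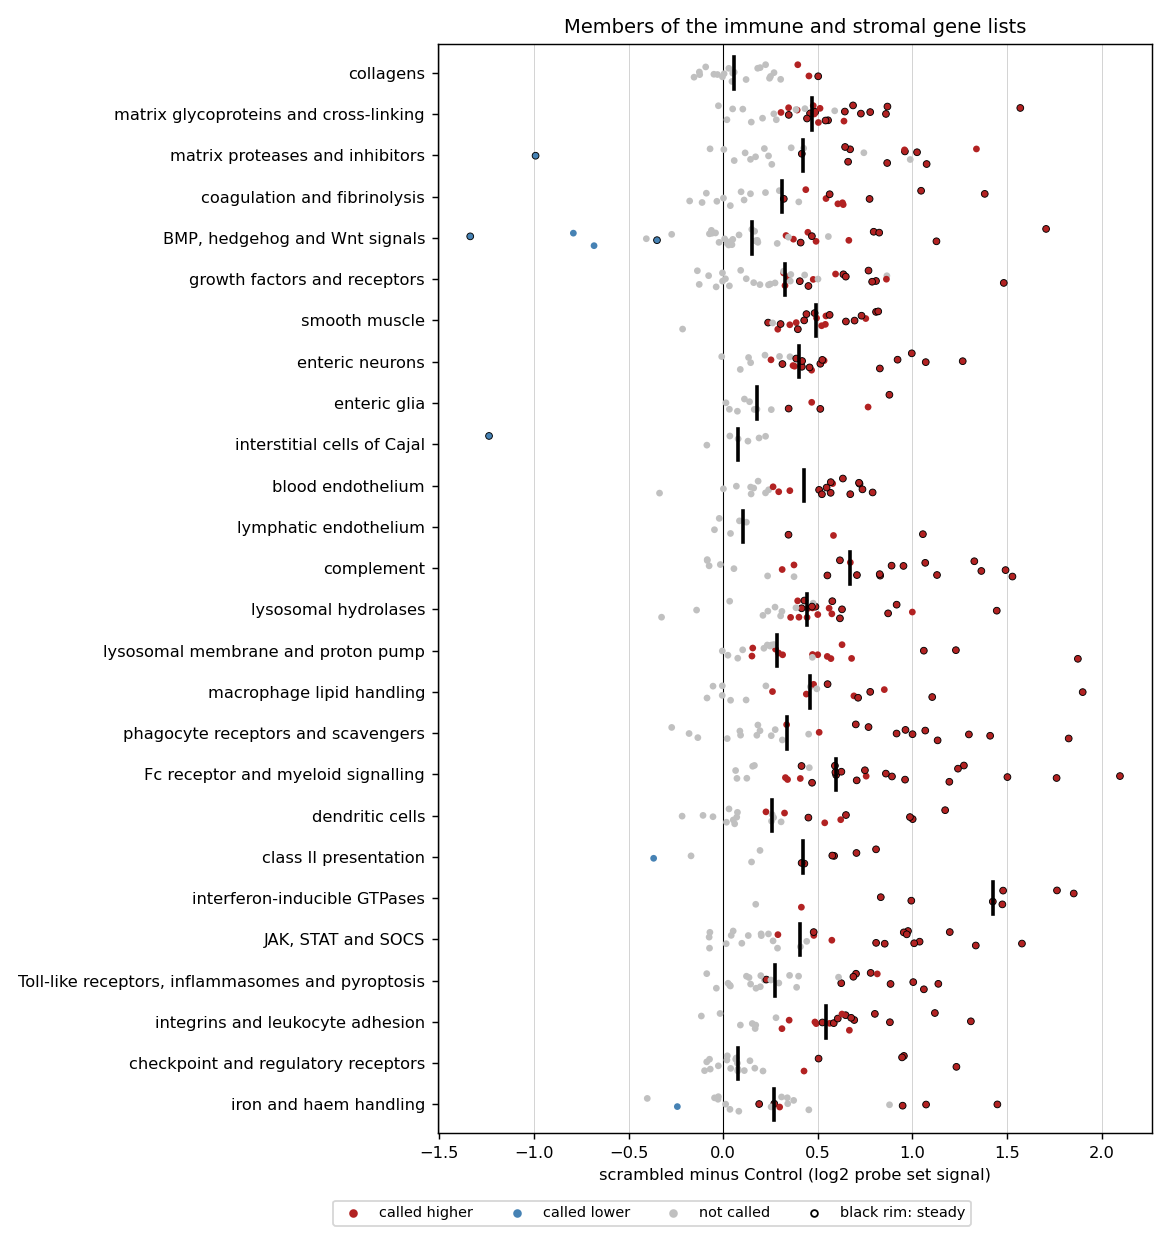
Difference of scrambled from Control (horizontal axis, log2) for each measured member of the immune and stromal lists (rows), coloured by call, with a black rim for steady genes and a black bar at the list median. The bar of the interferon-inducible GTPases lies at 1.42 and that of collagens at 0.06.

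In the stroma, 21 of 32 glycoproteins and cross-linking enzymes of the matrix rose, and 3 of 23 collagens did. Thbs1, thrombospondin 1, ran from 9.26 to 10.03 (median 9.76) in Control and from 10.50 to 11.98 (median 11.25) in scrambled. The groups did not overlap, and the difference was 1.57 ± 0.28 (adjusted p = 0.000174). Plod2 (0.87 ± 0.16), a collagen lysine hydroxylase, and Tnc (0.86 ± 0.18), tenascin C, also rose. Of the collagens Col4a2 (0.50 ± 0.12), of basement membranes, rose, whereas the fibrillar collagens Col1a1 and Col3a1 had differences of 0.27 and 0.30 and did not pass. Without the narrow arrays 10 collagens rose and 1 fell, and 17 glycoproteins and cross-linking enzymes rose and 1 fell. Of 24 matrix proteases and inhibitors 10 rose, such as Adamts1 (1.08 ± 0.27), Adamts4 (1.02 ± 0.28) and Mmp14 (0.96 ± 0.17), and the inhibitor Timp4 (-0.99 ± 0.24) fell. With the narrow arrays left out, 18 of that list rose.

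Signals of the crypt environment changed in both directions. Grem1 (1.71 ± 0.21), an antagonist of BMP, Sfrp1 (1.13 ± 0.17), an antagonist of Wnt, and Rspo3 (0.82 ± 0.12), which enhances Wnt signalling, rose, and the hedgehog pathway genes Hhip and Gli1 (-0.35 ± 0.09) fell. In that list 11 of 37 rose and 4 fell. Of 35 growth factor genes 14 rose, with Igfbp5 (1.48 ± 0.23) and Igfbp4 (0.81 ± 0.16), which bind insulin-like growth factors, and Tgfbi (0.79 ± 0.14), induced by TGF-beta. In the fit without the narrow arrays 11 genes of the first list rose and 7 fell, and 15 growth factor genes rose and 3 fell. Of 22 genes of coagulation and fibrinolysis 10 rose, including Fgl2 (1.38 ± 0.23), a prothrombinase, and Plat (1.05 ± 0.26) and Plaur (0.77 ± 0.19) of plasminogen activation.

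Muscle, nerve and vessel markers rose too. Smooth muscle genes rose in 20 of 22 cases, with Cald1 (0.82 ± 0.14), Des (0.81 ± 0.12) and Kcnmb1 (0.73 ± 0.15), a contractile regulator, an intermediate filament and a potassium channel subunit. In each array the median of that list's genes was taken, after each gene was centred over the arrays of the comparison. It ran from -0.88 to 0.18 in Control and from 0.10 to 0.38 in scrambled, so the groups overlapped. Of 24 enteric neuron genes 17 rose, among them the neuropeptides Penk (1.27 ± 0.19) and Vip (1.00 ± 0.19) and the neuronal hydrolase Uchl1 (1.07 ± 0.22). The array medians of that list, formed likewise, ran from -0.28 to -0.08 in Control and from 0.05 to 0.60 in scrambled. Enteric glia added 5 of 13, with Gfap (0.88 ± 0.17), Sostdc1 (0.51 ± 0.11) and Gpr37l1 (0.35 ± 0.08). Blood endothelium added 15 of 24, with Cdh5 (0.79 ± 0.15), the junction cadherin, Eng (0.74 ± 0.15) and Tek (0.72 ± 0.11), and lymphatic endothelium 3 of 8, with Pdpn (1.06 ± 0.17) and Flt4 (0.35 ± 0.07). When the narrow arrays were omitted, 6 lymphatic genes, 19 blood endothelial genes and 21 enteric neuron genes rose, and 1 blood endothelial gene fell. Of 7 genes of the interstitial cells of Cajal, gut pacemaker cells, 0 rose and Ano1 fell. The part of tissue composition in the stromal and immune results was not tested.

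In the epithelium, several channels of salt and water transport fell. Of 26 genes of ion and water transport 8 fell and 1 rose. Kcne3, the partner subunit of the basolateral potassium channel Kcnq1, ran from 10.43 to 11.62 (median 11.13) in Control and from 9.30 to 10.02 (median 9.70) in scrambled. The scrambled arrays all lay lower, with a difference of -1.38 ± 0.25 (adjusted p = 0.000141). Kcnq1 (-1.19 ± 0.13) itself, the potassium channel Kcnn4 (-1.25 ± 0.12) and the chloride channel Ano1 (-1.24 ± 0.20) fell as well. So did the water channel Aqp8 (-1.13) and the sodium, potassium and chloride importer Slc12a2 (-0.71), while Aqp4 (0.84 ± 0.20), a basolateral water channel, rose. Slc26a3, the main chloride and bicarbonate exchanger of the colon surface, had a difference of -0.36 and Car1, a carbonic anhydrase, one of 0.06, and neither passed. Without the narrow arrays 2 of the list rose and 13 fell.

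Nutrient carriers divided, with 4 risen and 4 fallen of 29. Slc51b (1.36 ± 0.27), a subunit of the bile acid exporter, and Slc39a4 (0.61 ± 0.14), a zinc importer, rose, and the metal importers Slc39a5 (-0.73 ± 0.14) and Slc39a8 (-0.47 ± 0.08) and the phosphate importer Slc20a1 (-0.93 ± 0.22) fell. Detoxifying enzymes fell without a risen member in phase II conjugation, where 7 of 22 fell. Gsta3 (-1.36 ± 0.19), a glutathione transferase, and the sulfotransferases Sult1a1 (-1.21 ± 0.16) and Sult1c2 (-1.14 ± 0.24) led that list. In phase I 5 of 25 fell, including Cyp2d26 (-0.96 ± 0.12), Aldh1b1 (-0.94 ± 0.17) and Ces2g (-0.79 ± 0.14), and 1 rose. When the narrow arrays were omitted, 14 genes of phase I, 12 of phase II and 12 nutrient carriers fell.

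Lists of energy and lipid metabolism had few calls and depended on the narrow arrays. In the tricarboxylic acid cycle 1 of 20 fell, and 19 without those arrays. Cholesterol synthesis and uptake gave 1 and 17 of 20, fatty acid oxidation and ketogenesis 1 and 18 of 23, peroxisomal lipid oxidation 1 and 8 of 15, and the nuclear-encoded respiratory chain 0 and 20 of 31. The called members were not steady: Idh3a (-0.57 ± 0.16) of the citric acid cycle, Mvd (-0.62 ± 0.19) of sterol synthesis, Acads (-0.50 ± 0.16) and Acadl (0.67 ± 0.18), which oxidise fatty acids, Pecr (-0.47 ± 0.16), a peroxisomal reductase, and Cycs (0.29 ± 0.09), cytochrome c. In fatty acid synthesis and desaturation 4 of 18 fell, with Acss2 (-0.93 ± 0.21) and Scd2 (-0.81 ± 0.22) steady, and 2 rose, and without those arrays 9 fell and 0 rose.

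Barrier genes changed in part. Of 27 genes of mucin-type O-glycan synthesis 5 rose and 3 fell. Fut2, which adds the terminal fucose of mucosal glycans, ran from 10.33 to 10.996 (median 10.65) in Control and from 11.24 to 11.82 (median 11.62) in scrambled. The groups were separate, with a difference of 0.89 ± 0.14 (adjusted p = 2.58e-05). B3galt5 (0.86 ± 0.16), a galactosyltransferase, rose and B4galnt3 (-0.75 ± 0.17) fell. Brush border and terminal web genes gave 4 rises, with Eps8 (0.70 ± 0.15), and 2 falls, Cobl (-0.54 ± 0.12) and Baiap2l2 (-0.60 ± 0.11), of 25. In the list of desmosome and basement adhesion 2 of 21 rose, Cdh17 (0.44 ± 0.12) and Plec (0.38 ± 0.13), neither steady, and Plec had a difference of -0.09 within amplification batch 1. Of 27 epithelial transcription factors 5 fell, Myb and Grhl2 (-0.67 ± 0.11) steadily, 1 rose, and 20 fell without the narrow arrays. There 10 glycan synthesis genes and 9 brush border genes fell, and 6 and 2 rose.

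**Figure D4:**
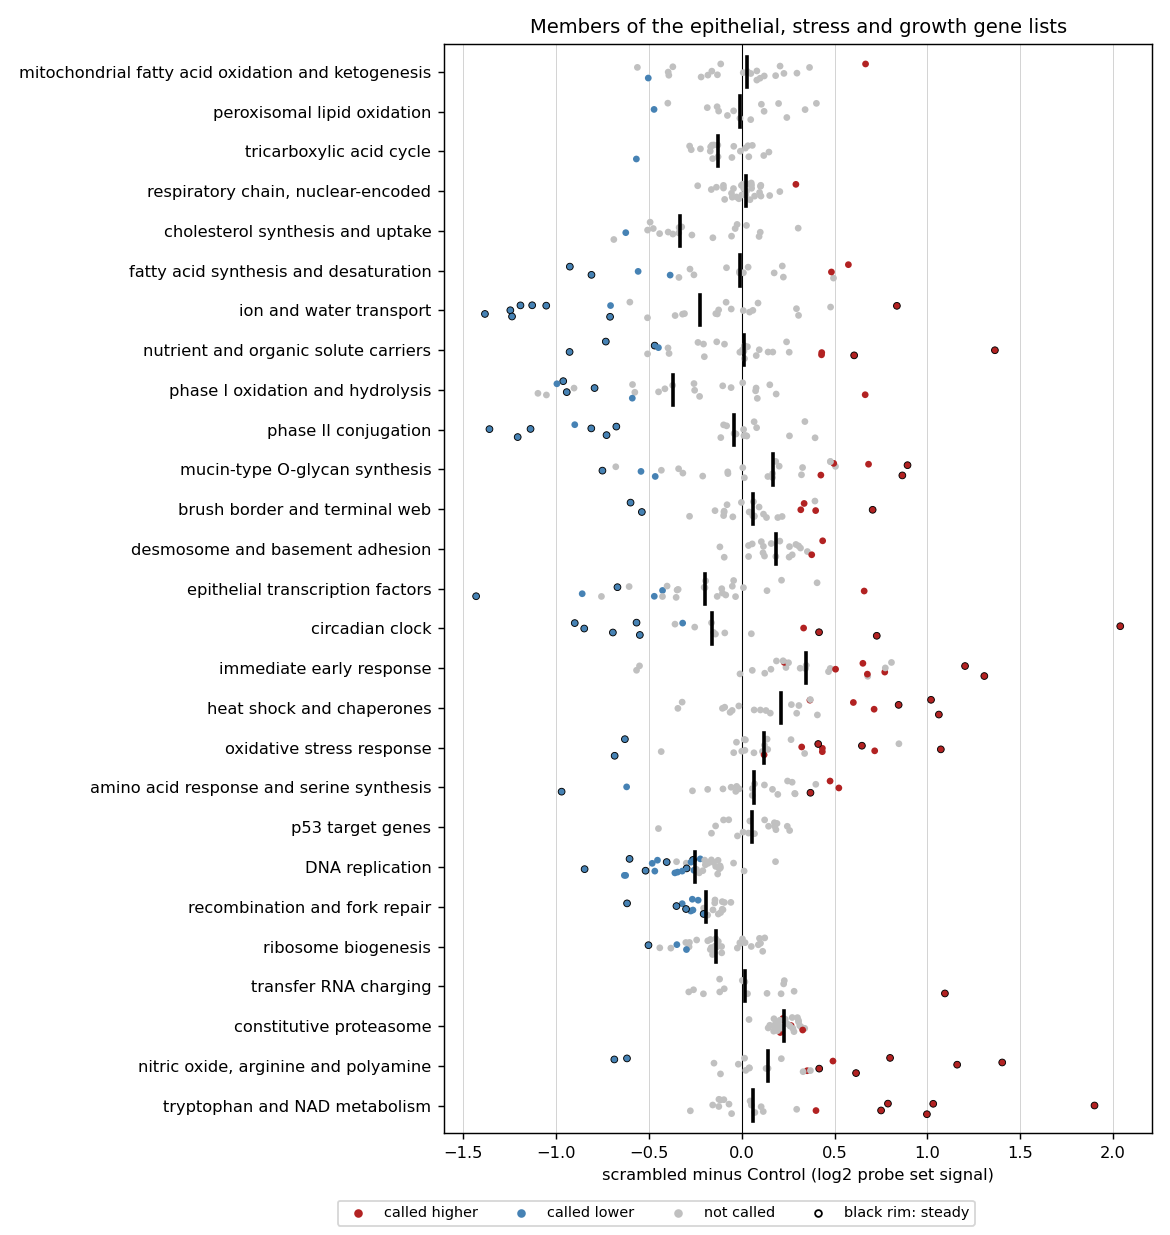
Difference of scrambled from Control (horizontal axis, log2) for each measured member of the epithelial, stress and growth lists (rows), coloured by call, with a black rim for steady genes and a black bar at the list median. No member of DNA replication or of recombination and fork repair rose, and their bars lie at -0.25 and -0.19.

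The circadian clock changed in both directions. Its activators Clock and Arntl drive the output genes Dbp and Tef and the repressors Per and Cry, and Nfil3 represses the sites that Dbp activates. Nfil3 ran from 7.33 to 7.91 (median 7.54) in Control and from 8.83 to 10.39 (median 9.70) in scrambled. The groups were separate, and the difference was 2.04 ± 0.26 (adjusted p = 1.21e-06). Arntl (0.73 ± 0.15) and Cry1 (0.42 ± 0.11) rose too, while Dbp (-0.90 ± 0.18), Ciart (-0.85 ± 0.17), a clock repressor, and Per3 (-0.69 ± 0.14) fell. Dbp ran from 8.24 to 9.75 (median 9.60) in Control and from 7.88 to 8.73 (median 8.52) in scrambled, with overlap. Tef (-0.57), Nr1d2 (-0.55) and Per2 (-0.32) fell, Rora rose (0.33), and Clock (-0.15), Per1 (-0.25) and Nr1d1 (-0.36) did not pass. In all 4 of 17 rose and 6 fell, and 3 and 12 without the narrow arrays. The labels read here state no hour at which a colon was taken.

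**Figure D5:**
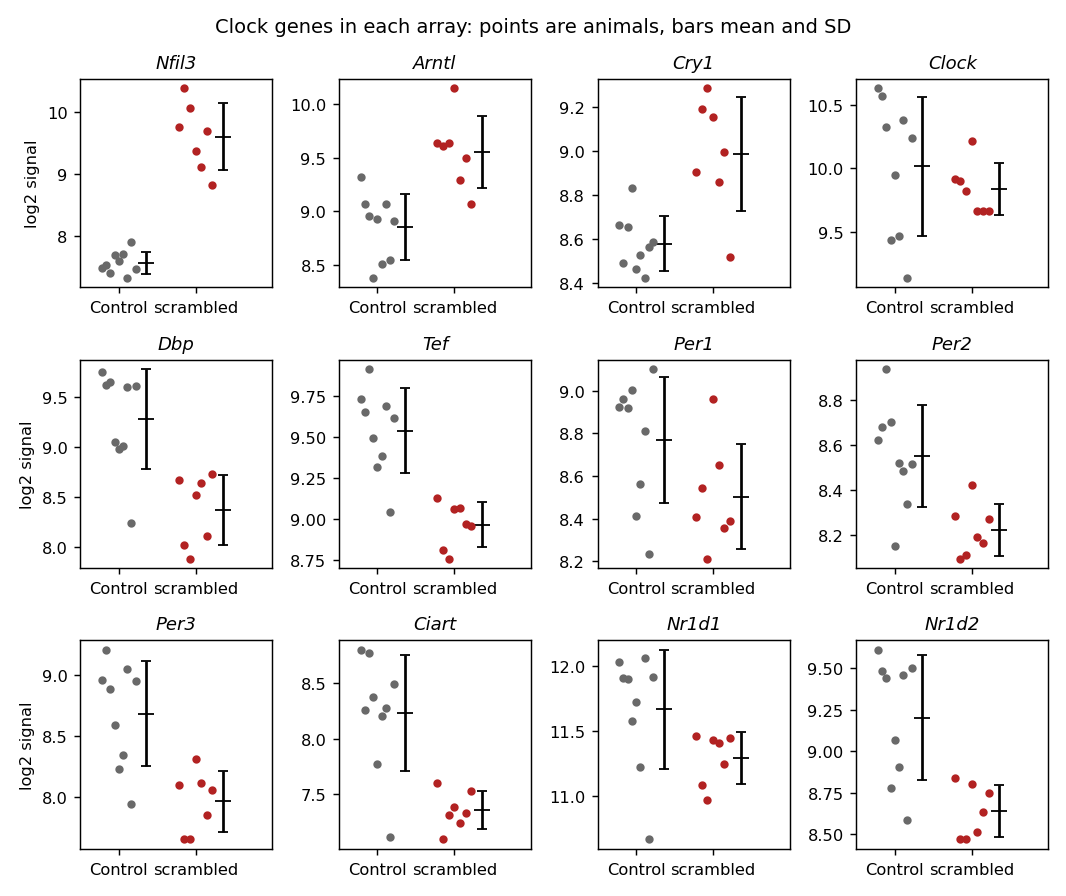
Log2 signal (vertical axes) of 12 clock genes in each Control and scrambled array, 1 point per array, with the group mean and SD beside the points. Nfil3 lies between 7.33 and 7.91 in Control and between 8.83 and 10.39 in scrambled, and Dbp has a median of 9.60 against 8.52.

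Stress responses rose in selected members. In the oxidative stress response 8 of 25 rose and 2 fell. Hmox1, the inducible haem oxygenase, ran from 7.65 to 8.35 (median 8.08) in Control and from 8.69 to 9.53 (median 9.07) in scrambled. The scrambled arrays lay above all Control arrays, with a difference of 1.07 ± 0.27 (adjusted p = 0.00653). Sod3 (0.65 ± 0.14) and Gpx1 (0.41 ± 0.09), which remove superoxide and peroxide, rose, and Nqo1 (-0.63 ± 0.08), a quinone reductase, and Cbr3 (-0.68 ± 0.13), a carbonyl reductase, fell. Heat shock and chaperone genes rose in 6 of 22 cases, with Hspb1 (1.06 ± 0.13), Hspb8 (1.02 ± 0.14) and Hspa1a (0.84 ± 0.13), and immediate early genes in 7 of 25, with Dusp6 (1.31 ± 0.24) and Ier3 (1.20 ± 0.25). With the narrow arrays left out, 4 oxidative stress genes rose and 6 fell, 3 chaperones rose and 7 fell, and 3 immediate early genes rose and 4 fell. All 3 lists then had a smaller share of risen members than the 28.2% of all genes, and only the chaperones had a larger share of fallen members than the 25% of all genes. The amino acid response had 3 rises, including Eif4ebp1 (0.37 ± 0.07), an inhibitor of translation, and 2 falls, including Shmt1 (-0.97 ± 0.14) of one-carbon metabolism, of 23, and without the narrow arrays 2 rose and 5 fell. Of 18 measured p53 target genes limma called 0 in either direction, with 2 at an unadjusted p under 0.05, and 4 fell without the narrow arrays, a share below the 25% of all genes in that fit.

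Many genes of DNA replication and repair fell. Of 36 DNA replication genes 17 fell and 0 rose. Prim1, the primase that starts new DNA strands, ran from 7.28 to 9.14 (median 8.19) in Control and from 6.96 to 7.54 (median 7.25) in scrambled. The groups overlapped, since 2 Control arrays lay within the scrambled range, and the difference was -0.85 ± 0.16 (adjusted p = 0.000422). Mcm5 (-0.52 ± 0.11) and Mcm6 (-0.60 ± 0.13) of the replicative helicase fell as well, and without the narrow arrays 32 members did. In recombination and fork repair 10 of 22 fell, with Uhrf1 (-0.62 ± 0.13), Hells (-0.35 ± 0.06) and Chek1 (-0.30 ± 0.08), which maintain DNA methylation, chromatin and the replication checkpoint. Hells and Chek1 had low signals, with Control medians of 6.26 and 7.04. Ribosome biogenesis had 3 falls of 32, with Utp20 (-0.50 ± 0.10) steady, and 25 without the narrow arrays.

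Amino acid pathways held rises and some falls. In nitric oxide, arginine and polyamine metabolism 7 of 21 rose, with Nos2 (1.40 ± 0.32), the inducible nitric oxide synthase, Ddah1 (1.16 ± 0.17), which removes its inhibitors, and Smox (0.80 ± 0.17), spermine oxidase, and the urea cycle enzymes Cps1 (-0.69 ± 0.11) and Otc (-0.62 ± 0.07) fell. In the fit without the narrow arrays 8 rose and 5 fell. Otc had low signals, with medians of 6.60 in Control and 6.09 in scrambled. In tryptophan and NAD metabolism 6 of 20 rose, with Nampt (1.00 ± 0.24), which salvages NAD, and Parp14 (1.03 ± 0.19) beside Ido1, and without the narrow arrays 11 rose and 4 fell. Of 15 genes of transfer RNA charging 1 rose, Wars (1.09 ± 0.19), the tryptophan enzyme, and 10 fell without the narrow arrays. Proteasome subunits rose in 5 of 31 cases, including Psmd7 (0.33 ± 0.11) and Psma3 (0.27 ± 0.08), none of them steady, and without the narrow arrays 0 rose and 5 fell, both shares below those of all genes.

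Lists for other tissues had few calls. Of 22 squamous genes and 7 genes of red cells and platelets, 0 were called by limma in either direction, with 1 and 0 at an unadjusted p under 0.05, and without the narrow arrays 5 red cell and platelet genes rose. Of 15 small intestinal genes 2 fell and Lyz1, a lysozyme of Paneth cells, rose (0.33), not steadily. Fabp6, the ileal bile acid binding protein, ran from 8.23 to 9.55 (median 8.60) in Control and from 7.34 to 8.03 (median 7.83) in scrambled. The groups did not overlap (difference -1.03 ± 0.13, adjusted p = 1.43e-06), and Slc5a1 (-0.83 ± 0.18), the glucose importer, fell too. In skeletal muscle Eno3 (-0.74 ± 0.20) fell, of 16 genes, and in adipocytes Lipe (0.39 ± 0.12) rose, not steadily, of 10. Of 13 pancreas and liver genes Ttr (-1.17 ± 0.15), the thyroid hormone carrier, fell, and Cpa1 and Alb had differences of 0.77 and 0.40 that did not pass. Ttr, Eno3 and Slc5a1 had Control medians of 11.85, 11.26 and 11.07, against 7.52 for Cpa1 and 7.19 for Alb. Whether their falls reflect cells of another tissue was not tested.

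Neighbouring genes on a chromosome sometimes moved together, in positions of GRCm38.p6. In 8 places at least 4 measured neighbours were called in 1 direction. On chromosome 17, from 34119693 to 34216321, H2-DMa, Psmb9, Tap1, Psmb8 and Tap2, which prepare and load antigen peptides, rose by 0.70 to 1.53. Abcg3, Gbp8, Gbp9, Gbp4 and Gbp11 rose on chromosome 5 by 0.25 to 1.48, and Slfn2, Slfn1, Slfn4 and Slfn3 on chromosome 11 by 0.26 to 0.97. On chromosome 19 the membrane genes Ms4a6c, Ms4a6b, Ms4a4d and Ms4a6d rose by 0.53 to 2.23, and Lipa, Ifit2, Ifit3 and Ifit3b by 0.57 to 1.73. Stat3, Cavin1, Atp6v0a1 and Naglu rose on chromosome 11, and Zfand5, Gda, 1110059E24Rik, Abhd17b and Cemip2 on chromosome 19. The glutathione transferases Gstm7, Gstm6, Gstm3, Gstm2, Gstm1 and Gstm4 fell on chromosome 3 by amounts between -0.98 and -0.34. The Gbp, Slfn, Ifit3 and Gstm genes are near-identical copies in part, and their probe sets may share signal.

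Of 726 long noncoding RNA genes 4 rose (0.55%) and 14 fell (1.93%), both below the 9.04% and 4.12% of all genes. Of 297 microRNA genes 0 rose and 1 fell (0.34%). Of 54 small nucleolar RNA genes 0 rose and 4 fell (7.41%, against 4.12% of all genes). An array of whole transcripts does not separate a microRNA precursor from its host transcript.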

How the data were processed

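Total RNA of mouse distal colon was measured on Affymetrix arrays, 1 per sample, after whole transcriptome amplification from 25 ng RNA, per the labels' protocols. The authors deposited RMA signals on a log2 scale, 1 per probe set, and used Partek, per the submitters' processing notes, which give no versions. No source used here says whether batch effects were removed before deposit, and signal over background is unknown, so the number of arrays limits the precision.

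All 28853 probe sets of 36 arrays were fitted with limma 3.58.1 in R 4.3.3, as a linear model of group, amplification batch (3 levels) and hybridization batch (2 levels) with empirical Bayes moderation, a mean-variance trend and 28 residual degrees of freedom. P-values are two-sided and were adjusted by Benjamini-Hochberg over all probe sets, with a threshold of 0.05. The platform annotation gave 1 gene to 21789 probe sets, several to 1621 and none to 5443, and a gene's probe set of highest mean over all arrays stood for it. Gene positions, RNA classes and promoters are from RefSeq on GRCm38.p6. The median standard error was 0.108 log2. The fit was tested on simulated data with independent noise. Those data lack the differences in spread between arrays, so they cannot show how such differences affect the counts.

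The members, the lists and the rule for named genes were chosen with earlier results of these data known. Named are the 25 steady rises and 25 steady falls of largest difference, after leaving out genes named in those results, and up to 3 steady members per list and direction, or up to 2 called members said not to be steady. Of 181 named genes 118 rose, 63 fell and 170 were steady. Genes outside this rule are given with the values of their list. Alternatives were other batch terms, only the 2 groups, a replicate block, quantile normalization, median centring, array SD as a covariate, omission of arrays of SD under 1.7, array weights, other moderation, omission of the dimmest 40% of probe sets (11541), a minimum change of 0.5 log2, each batch alone and each array left out. Omission of narrow arrays after quantile normalization was chosen after seeing the data. Calculations used Python 3.11.15, pandas 2.3.3 and matplotlib 3.10.9.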

Additional observations from a re-analysis of the deposited data

Results flagged for a closer look

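Of 480 groups of arrays examined, 26 held a single array far from the others of its group by Dixon's gap ratio at 95%, and chance flags about 1 in 20 groups. In Control replicate 2 the log2 signal was 7.24 for Trim15 (others 6.33 to 6.78). In scrambled replicate 5 the log2 signal was 9.67 for Tnip3 (others at least 10.44) and 6.95 for Chek1 (others 6.61 to 6.75). In Control replicate 8 the log2 signal was 9.45 for Mgp (others 10.42 to 11.12), 9.76 for Hspb1 (others at least 10.44) and 7.77 for Cdkn3 (others 8.60 to 9.44). In scrambled replicate 2 the log2 signal was 11.69 for Penk (others 10.38 to 10.71), 10.74 for Vip (others 9.68 to 9.97), 9.32 for Plod2 (others 8.12 to 8.60), 11.53 for Tgfbi (others 10.66 to 11.03) and 7.82 for Sult1c2 (others 8.75 to 9.35). In Control replicate 1 the log2 signal was 7.15 for Otc (others 6.44 to 6.79) and 8.73 for Cps1 (others 8.17 to 8.38). In scrambled replicate 4 the log2 signal was 8.46 for Cbr3 (others 7.78 to 8.03), 9.25 for Ces2g (others 8.46 to 8.80) and 9.80 for Hid1 (others 8.98 to 9.26). In scrambled replicate 3 the log2 signal was 9.36 for Cyp2d26 (others 8.37 to 8.74). The next values are medians of a list's genes in an array, after each gene was centred over arrays. In scrambled replicate 4 this median was 0.35 for mitochondrial fatty acid oxidation and ketogenesis (others -0.17 to 0.05) and 0.31 for peroxisomal lipid oxidation (others -0.10 to 0.07). It was 0.34 there for nutrient and organic solute carriers (others -0.22 to 0.00). In scrambled replicate 2 the median was 0.71 for matrix proteases and inhibitors (others 0.06 to 0.30) and 0.43 for growth factors and receptors (others 0.06 to 0.19). There it was 0.60 for enteric neurons (others 0.05 to 0.26) and 0.45 for phagocyte receptors and scavengers (others 0.10 to 0.25). In Control replicate 4 the median was -0.69 for complement (others -0.43 to -0.16). In scrambled replicate 5 the median was 1.31 for exocrine pancreas and liver (others -0.55 to -0.04). Scrambled replicate 2 had the highest Penk and Vip signals, and scrambled replicate 5 the pancreas transcripts described above.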

How the results depend on the processing

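The direction of all 3384 calls held under other batch terms, only the 2 groups, quantile normalization, median centring, array SD as a covariate and each array left out, and 3298 kept it within amplification batch 1. The counts of higher and lower probe sets were 1168 and 563 with only the 2 groups in the fit, 3726 and 3646 with array SD as a covariate, 8085 and 6332 without arrays of SD under 1.7, 4424 and 5779 without them after quantile normalization, and 9095 and 7167 with array weights. Within single batches they were 439 and 592 (hybridization 1), 787 and 261 (hybridization 2), 392 and 789 (amplification 1) and 33 and 21 (amplification 3). A minimum change of 0.5 log2 left 1013 and 425, and 1 probe set per gene left 850 lower. With 1 array left out the counts ran from 1597 to 2377 and from 994 to 1523. Plec turned to -0.0897 within amplification batch 1. Within amplification batch 3 alone 169 of the 181 named genes lost their call and 0 reversed. Ido1, Nos2 and Cd274 had differences of 0.35, 0.50 and 0.30 there. The cause of these shifts was not tested.

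Same-numbered Control and scrambled arrays had deviations from their group mean that correlated between -0.70 and 0.64. Of 7 scrambled arrays 2 correlated best with their own number. Batch and array spread were not removed from these deviations, so they cannot decide whether the numbers pair the samples. With the replicate block in place of the batch terms 1794 probe sets were higher and 1457 lower, 2931 of 3384 calls were kept, and 4 of 181 named genes lost their call.

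List medians that moved by more than 1 SD of the list's replicate spread are given by setting. With array weights the medians that moved were -0.33 for mitochondrial fatty acid oxidation and ketogenesis, -0.50 for ion and water transport, -0.25 for nutrient and organic solute carriers, -0.19 for brush border and terminal web, -0.55 for circadian clock and -0.35 for transfer RNA charging. Also moved there were 0.23 for tryptophan and NAD metabolism, 0.26 for lymphatic endothelium, 0.50 for complement, 0.48 for phagocyte receptors and scavengers, 0.16 for JAK, STAT and SOCS and 0.0494 for small intestine. Within amplification batch 1 the medians that moved were -0.45 for tricarboxylic acid cycle, -0.22 for respiratory chain, nuclear-encoded, -0.96 for cholesterol synthesis and uptake, -0.40 for fatty acid synthesis and desaturation, -0.59 for ion and water transport and -0.26 for nutrient and organic solute carriers. To these came -0.39 for phase II conjugation, -0.19 for mucin-type O-glycan synthesis, -0.19 for brush border and terminal web, -0.18 for desmosome and basement adhesion, -0.56 for epithelial transcription factors and -0.59 for circadian clock. Others in that setting were -0.18 for heat shock and chaperones, -0.13 for amino acid response and serine synthesis, -0.21 for p53 target genes, -0.58 for DNA replication, -0.45 for ribosome biogenesis and -0.39 for transfer RNA charging. The rest included -0.11 for constitutive proteasome, 0.23 for tryptophan and NAD metabolism, 0.25 for collagens, 0.29 for enteric glia, -0.0746 for interstitial cells of Cajal and 0.26 for lymphatic endothelium. Further ones there were 0.11 for lysosomal hydrolases, 0.64 for phagocyte receptors and scavengers, 0.50 for dendritic cells, 0.14 for JAK, STAT and SOCS, 0.36 for checkpoint and regulatory receptors and -0.0377 for iron and haem handling. Also moved there were 0.0951 for small intestine and 0.38 for red blood cells and platelets. Without the narrow arrays the medians that moved were -0.51 for ion and water transport, -0.26 for nutrient and organic solute carriers, -0.34 for phase II conjugation, -0.55 for circadian clock, -0.38 for transfer RNA charging and 0.21 for tryptophan and NAD metabolism. To these came 0.26 for lymphatic endothelium, 0.48 for complement, 0.15 for lysosomal hydrolases, 0.53 for phagocyte receptors and scavengers, 0.14 for JAK, STAT and SOCS and 0.24 for checkpoint and regulatory receptors. Others in that setting were 0.0535 for iron and haem handling, 0.21 for squamous epithelium and 0.0621 for small intestine. Within hybridization batch 1 the medians that moved were -0.50 for epithelial transcription factors, -0.40 for circadian clock, 0.63 for matrix proteases and inhibitors, 0.87 for complement, 0.70 for phagocyte receptors and scavengers and 0.21 for checkpoint and regulatory receptors. Without the narrow arrays after quantile normalization the medians that moved were -0.46 for circadian clock, 0.12 for tryptophan and NAD metabolism, 0.24 for matrix glycoproteins and cross-linking, 0.21 for lymphatic endothelium and 0.49 for complement. Within amplification batch 2 the medians that moved were 0.62 for immediate early response, 0.35 for nitric oxide, arginine and polyamine, 0.43 for coagulation and fibrinolysis, 0.54 for growth factors and receptors, 0.31 for enteric glia and 0.0225 for lymphatic endothelium. The rest included 0.76 for integrins and leukocyte adhesion and -0.23 for exocrine pancreas and liver. Within hybridization batch 2 the median was 0.29 for nitric oxide, arginine and polyamine. Without dim probe sets the medians that moved were 0.66 for matrix proteases and inhibitors, 0.42 for coagulation and fibrinolysis, 0.35 for lymphatic endothelium, 0.45 for phagocyte receptors and scavengers and -0.19 for small intestine. Within amplification batch 3 the medians that moved were 0.41 for complement, 0.20 for macrophage lipid handling, 0.59 for interferon-inducible GTPases and 0.34 for integrins and leukocyte adhesion.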

Other observations

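The long noncoding RNA AW112010, known to be induced by interferon, rose by 1.25 log2 and Zeb2os by 0.62, both steady, and among those that fell steadily were Firre (-0.42) and Gas5 (-0.30), the host of several small nucleolar RNAs. Snord118, a small nucleolar RNA that acts in ribosomal RNA processing, fell steadily (-1.16, adjusted p = 0.0004 by limma). These genes were chosen after their values were seen.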
